A study of Mus musculus with 30 samples.

Results

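The cadherins and protocadherins measured here are the 57 protein-coding genes whose GENCODE M21 symbol is Cdh, Pcdh or Pcdhb followed by a number, out of 55335 genes counted. The alpha and gamma protocadherin clusters were left out because their transcripts share exons. By structure, 5 members are classical type I cadherins (Cdh1, Cdh2, Cdh3, Cdh4 and Cdh15) and 12 are type II cadherins. Cdh5 (vascular endothelial cadherin), Cdh13 (T-cadherin, held by a lipid anchor), Cdh16 and Cdh17 (the 7D cadherins), Cdh23 and Cdh26 make up the other cadherins. The protocadherins are 4 of the delta-1 class, 5 of the delta-2 class, 3 others (Pcdh12, Pcdh15 and Pcdh20) and the 22 beta genes, which lie in a row on chromosome 18 from 37264938 to 37524479 (GRCm38).

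The RNA was bound to polyribosomes of the nucleus accumbens of female mice that carry RiboTag, a haemagglutinin-tagged ribosomal protein switched on by Cre recombinase. In D1-Cre-RT mice the tag marks neurons with the dopamine D1 receptor, and in A2A-Cre-RT mice, whose sample titles say D2, it marks the other medium spiny neuron class, through the adenosine A2A receptor gene. Each genotype was sampled in Controls and in mice that went through chronic witness defeat stress and were sorted by social interaction into Resilient and Susceptible. This gives 6 groups of 5 libraries, here called D1 or D2 Control, Resilient and Susceptible, and each library pools 4 mice with similar interaction scores taken 24 h after the social test. The mice differ in their Cre line as well as in the neuron class that is tagged, so the line and the class cannot be told apart. Libraries were the unit of replication, so p-values measure only the spread between these pools.

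Cadherins are cell-surface proteins whose extracellular repeats bind calcium and, in most members, bind the same or a related cadherin on the facing cell. Classical type I and type II cadherins link through catenins to actin and help to hold synapses together and to match axons with targets. Delta protocadherins use other cytoplasmic partners such as the WAVE complex, and the clustered protocadherins are switched on in different combinations in single neurons, which gives a neuron a surface identity.

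The 30 libraries held 28996168 to 65882152 counts in genes, and reads not assigned to a gene made up 10.1% to 53.3% of the table's total. D1 Susceptible replicate 1 had both the fewest gene counts and the 53.3%. Its TMM factor, which adjusts the library size, was 0.340, against 0.957 to 1.08 elsewhere. A low factor raises every scaled level of that library. D2 Susceptible replicates 1 and 2 stood apart: 15822 and 16525 genes had a count there, against 19440 to 22375 in the other 28 libraries, and the summed level of 6 epidermal genes was 348 and 566 CPM (read counts scaled to library size), against 18.7 to 39.9 CPM. Every replicate pair differed beyond counting noise (chi-square per degree of freedom 13.7 to 2963 over 60 pairs). Drd1, the D1 receptor gene, averaged 496 CPM in D1 and 105 CPM in D2 libraries. The summed D1 marker list reached 1858 CPM in D2 Resilient replicate 5 and 1236 CPM in D2 Control replicate 5, against 281 to 717 CPM in the other 13 D2 libraries and 1736 to 2609 CPM in D1 libraries. Markers of other cells were present in every library: endothelial markers summed to 11.9 to 34.1 CPM in D1 and 53.3 to 303 CPM in D2 libraries, and astrocyte markers to 28.3 to 136 CPM in D1 and 54.2 to 184 CPM in D2 libraries.

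Delta protocadherins, N-cadherin and T-cadherin had the highest levels when divided by exon length. In CPM per kilobase of exon, averaged over the 6 groups, Pcdh17, a delta-2 protocadherin of corticobasal ganglia circuits, was highest at 30.1, with libraries between 14.9 and 73.4. Pcdh1, of the delta-1 class, followed at 18.4 (9.27 to 25.2 over libraries) and Cdh2, the N-cadherin of synapses, at 16.8 (12.2 to 23.6). Those library ranges overlap, so the order of neighbours is that of their means. The next places on the per-kilobase scale belonged to Pcdh10 (15.7), a protocadherin needed for the growth of striatal axons, Pcdh9 (12.5), Cdh13 (11.7), Cdh22 (10.4), Pcdh7 (8.19), Cdh8 (7.20) and Pcdhb20 (7.13). These 10 genes held 59.4% of the members' summed CPM per kilobase. The median over the 54 members tested was 1.86 CPM per kilobase, against 3.6 over 14946 protein-coding genes tested. Among the classes with at least 4 tested members, the medians were 10.3 for delta-1 and 6.75 for delta-2 protocadherins, 4.41 for type I and 2.89 for type II cadherins and 1.70 for the beta cluster.

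**Figure D1:**
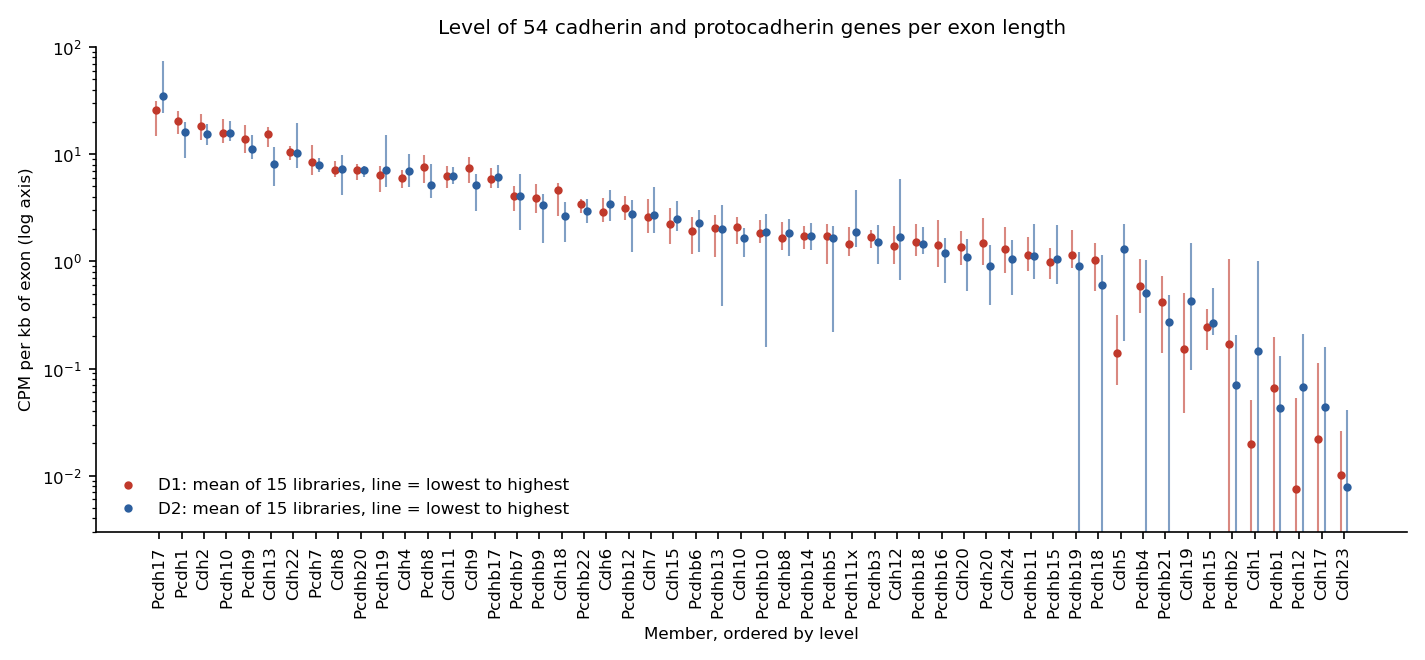
Level of each of the 54 tested members in CPM per kilobase of exon on a log axis, ordered by level, with D1 libraries in red and D2 libraries in blue. Points are means of 15 libraries and lines run from the lowest to the highest library (a library at 0 is drawn at the lower edge). Pcdh17, at 30.1, and Cdh23, at 0.00893, are the ends of the order.

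Several members known from other organs were near the detection limit, although the muscle cadherin Cdh15 was not, at 4.69 to 11.9 CPM. A library at 0 could hide up to 3 counts, which correspond to 0.0430 to 0.304 CPM. Cdh16, the kidney cadherin, had no count in any of the 30 libraries. Cdh3, the placental cadherin, had 37 counts in all and none in 23 libraries, and Cdh26 had 133 counts in all (29 in D1 and 104 in D2) and none in 17 libraries. These 3 genes did not pass the filter on low counts. The lowest of those that passed were Cdh23, a tip-link protein of inner-ear hair cells, at 0.00893 CPM per kilobase, Cdh17, the liver and intestine cadherin, at 0.0330, Pcdh12, an endothelial protocadherin, at 0.0374, Pcdhb1 at 0.0546, Cdh1, the epithelial E-cadherin, at 0.0822 and Pcdhb2 at 0.120. The D2 mean of Cdh1, 0.144 CPM per kilobase, was 0.0884 or 0.0826 without D2 Susceptible replicate 1 or 2. Members also differed in how steady they were. Pcdhb20 varied least over the 30 libraries, with a coefficient of variation of 7.99%, ahead of Pcdh10 (11.7%) and Cdh11 (12.1%), while Cdh12 varied by 63.1%, or by 38.1% without D2 Susceptible replicate 1 and 29.1% without replicates 1 and 2 of that group.

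The clearest contrast was between the D1 and D2 libraries, tested as the mean of the class difference in the 3 stress groups. Of 54 members tested, 17 (31.5%) passed, and the background over all 19368 genes was 29.3%, so the family was called about as often as genes at large. In D1, 10 members were higher, where the background was 13.8%, and 7 were higher in D2, where it was 15.5%. The median log2 difference, D1 minus D2, was 0.05 over members and 0.00 over all genes. No member's 15 D1 libraries lay wholly apart from its 15 D2 libraries, which 1.18% of all genes did. Outside the beta cluster 16 of 32 tested members passed, 9 higher in D1 and 7 higher in D2, and in the beta cluster 1 of 22. In tagged-ribosome RNA from tissue, fewer cells of a type and less RNA per cell cannot be told apart. That applies to every level given here.

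The members higher in D1 included T-cadherin and 3 type II cadherins that lie in a run on chromosome 15. That run holds Cdh6 (13028701 to 13173675, minus strand), Cdh9 (16728756 to 16857094, plus), Cdh10 (18818947 to 19014236, plus), Cdh12 (20449265 to 21589533, plus) and Cdh18 (22549022 to 23474418, plus). Cdh9, Cdh10 and Cdh18 were higher in D1, Cdh6 was higher in D2 and Cdh12 did not pass. Promoters in the RefSeq table (build GRCm38.p6) matched 22 of the 57 members. The last 120 bases before the start site are shown for called members whose window is nearly free of annotated exon sequence, D1-higher genes first, so that called members of either direction can be compared by eye. Capitals mark matches on either strand to the TATA box (TATAAA), the cyclic AMP response element (TGACGTCA), the AP-1 element (TGANTCA), the GC box (GGGCGG), the CCAAT box (CCAAT) or an E-box (CAGCTG), and GC box matches overlap in Cdh6. The Cdh18 window, chr15:23036343-23036462 on the plus strand, and the Cdh10 window, chr15:18820209-18820328 on the plus strand, lie inside the longer GENCODE gene. Pcdh8 is chr14:79771313-79771432 and Pcdh20 is chr14:88471397-88471516, both on the minus strand, as is Pcdh9 at chr14:93890680-93890799, the first of its entries in the table. Of the D2-higher genes, Cdh6 is chr15:13173676-13173795 on the minus strand and Pcdh17 is chr14:84443443-84443562 on the plus strand.
Cdh18: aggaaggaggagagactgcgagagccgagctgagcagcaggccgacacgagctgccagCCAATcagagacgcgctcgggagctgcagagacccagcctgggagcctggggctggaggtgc
Cdh10: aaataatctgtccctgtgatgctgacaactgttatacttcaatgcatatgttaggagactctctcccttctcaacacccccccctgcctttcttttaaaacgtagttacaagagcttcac
Pcdh8: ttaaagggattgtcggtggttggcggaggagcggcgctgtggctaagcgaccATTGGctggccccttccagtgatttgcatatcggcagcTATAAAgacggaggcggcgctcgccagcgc
Pcdh20: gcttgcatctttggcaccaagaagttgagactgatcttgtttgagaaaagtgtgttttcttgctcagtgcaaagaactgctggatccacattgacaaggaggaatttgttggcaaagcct
Pcdh9: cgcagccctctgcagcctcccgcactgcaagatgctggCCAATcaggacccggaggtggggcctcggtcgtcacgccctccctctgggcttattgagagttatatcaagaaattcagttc
Cdh6: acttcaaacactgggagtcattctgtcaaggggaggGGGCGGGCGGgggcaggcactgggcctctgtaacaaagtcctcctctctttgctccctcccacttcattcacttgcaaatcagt
Pcdh17: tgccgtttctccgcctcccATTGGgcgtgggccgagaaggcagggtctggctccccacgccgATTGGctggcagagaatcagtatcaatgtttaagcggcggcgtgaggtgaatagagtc
Of these 7 windows, that of Pcdh8 alone holds the TATA box letters. In windows of 250 bases before the start, over all 32851 promoters in the table and on both strands, 12.4% hold the TATA box, 33.8% the CCAAT box, 32.7% the GC box, 13% the E-box, 6.75% the AP-1 element and 1.55% the cyclic AMP element. A match is a description of the letters and not a binding site.

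Cdh13 (chromosome 8, 118283733 to 119324921, plus strand), a cadherin without a cytoplasmic tail, was measured at 130.0 to 199.5 CPM in D1 libraries (median 172) and 56.9 to 130.2 CPM in D2 libraries (median 89.5). Of the 15 D1 libraries, 14 were above every D2 library, and the highest D2 libraries were Resilient replicate 5 and Control replicate 5. Those are the same libraries in which the summed D1 markers were highest among D2 libraries. The means were 172 ± 20.3 and 91.9 ± 18.3 CPM (SD, n = 15), which edgeR fitted as 0.90 on the log2 scale, with an SE of 0.0852 and an adjusted p of 9.95e-10. Within each stress state the difference passed as well, at 0.78 in Controls, 1.04 in Resilient and 0.88 in Susceptible mice, and the D1 and D2 groups of 5 did not overlap in any of the 3.

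Cdh18, a type II cadherin of the brain, was measured at 12 to 24.5 CPM in D1 libraries (median 22.2) and 6.96 to 16.2 CPM in D2 libraries (median 12.4). In D1, 13 libraries exceeded every D2 library. The class difference of 0.81 on the log2 scale (SE 0.102) had an edgeR adjusted p of 2.12e-07 and passed in each state, at 0.71, 0.72 and 1.01 in Control, Resilient and Susceptible libraries. Cdh9, a type II cadherin that acts at hippocampal mossy fibre synapses, was measured at 19.2 to 33.1 CPM in D1 (median 25.8) and 10.4 to 23.2 CPM in D2 libraries (median 19.0). Of its D1 libraries 12 lay above all D2 libraries, and D1 exceeded D2 by 0.51 on the log2 scale (SE 0.0870) with an edgeR adjusted p of 3.04e-05. Cdh10 followed with a log2 difference of 0.33 (adjusted p = 0.00444, edgeR) and mean levels of 20.9 and 16.7 CPM in D1 and D2. Cdh2, the classical cadherin on both sides of excitatory synapses, was higher by 0.26 on the log2 scale, with means of 148 and 124 CPM (edgeR adjusted p = 0.00434).

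Among protocadherins, Pcdh8 (arcadlin), which is induced by neuronal activity and takes part in removing N-cadherin from synapses, was measured at 24.6 to 44.5 CPM in D1 (median 34.2) and 17.8 to 36.6 CPM in D2 libraries (median 22.5). The ranges overlapped, although every D1 library exceeded the D2 mean of 23.2 CPM. D1 exceeded D2 by 0.56 on the log2 scale (SE 0.0960) with an edgeR adjusted p of 3.52e-05. Pcdh20, placed here outside the delta classes, was measured at 5.12 to 13.9 CPM in D1 (median 7.46) and 2.15 to 7.83 CPM in D2 libraries (median 4.73). That is 0.73 on the log2 scale (SE 0.127), with an edgeR adjusted p of 4.6e-05. The delta-1 genes Pcdh1 and Pcdh9 were higher in D1 by 0.35 and 0.31 on the log2 scale (edgeR adjusted p = 0.00264 and 0.00398), and Pcdhb22 by 0.24 (edgeR adjusted p = 0.00505). Marker genes of other neurons moved the same way: 5 of 6 interneuron and 5 of 5 cortical projection neuron markers were higher in D1, with summed levels of 382 to 578 against 96.7 to 409 CPM and 503 to 967 against 169 to 565 CPM. Their part in the D1-higher members was not tested.

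**Figure D2:**
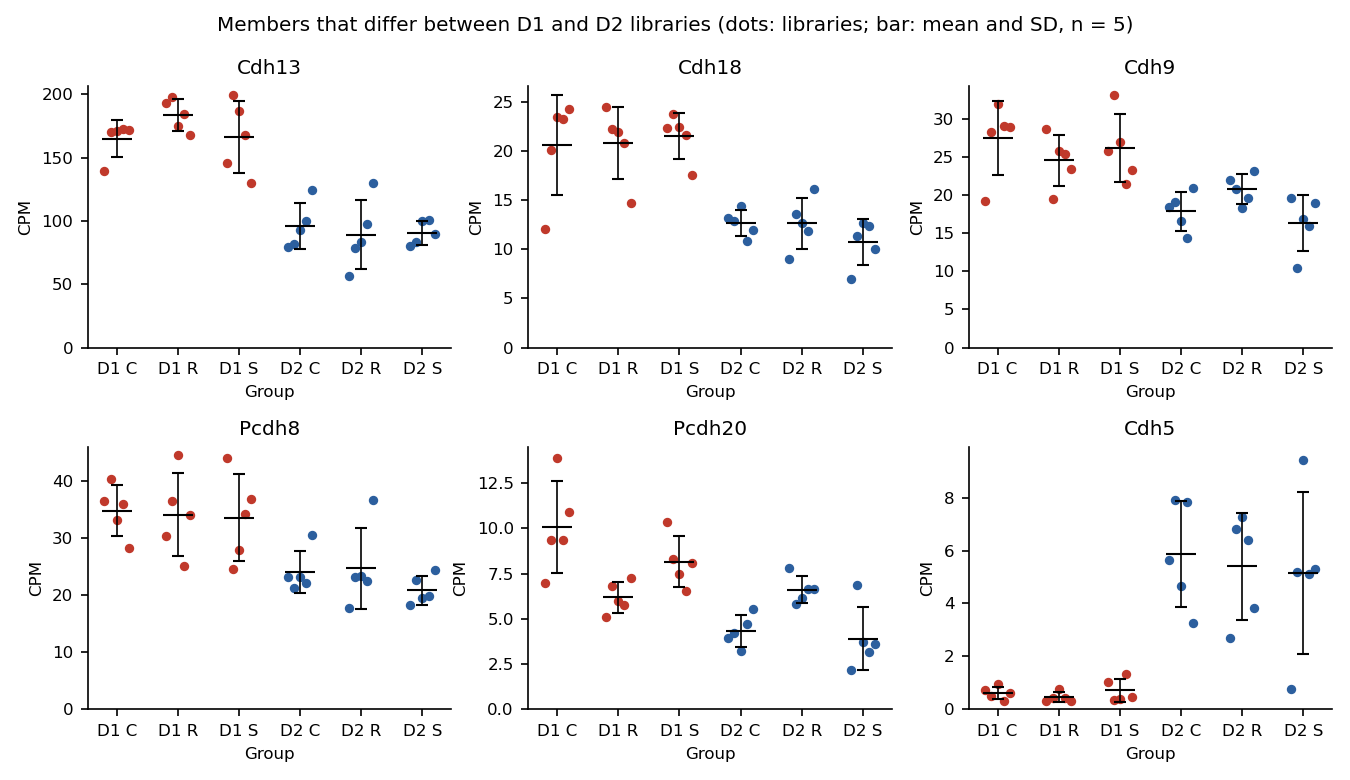
CPM in each library for Cdh13, Cdh18, Cdh9, Pcdh8, Pcdh20 and Cdh5, by group, with D1 groups in red and D2 groups in blue. Dots are libraries and bars are the mean and SD of 5. Cdh13 runs from 130.0 to 199.5 CPM in D1 and 56.9 to 130.2 CPM in D2, and Cdh5 is higher in D2.

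Of the 7 members higher in D2, the endothelial genes differed most. Cdh5, the cadherin of endothelial junctions (chromosome 8, 104101625 to 104144511, plus strand), was measured at 0.296 to 1.32 CPM in D1 (median 0.458) and 0.752 to 9.44 CPM in D2 libraries (median 5.29). The lowest D2 library was Susceptible replicate 1, and the other 14 D2 libraries were above all D1 libraries. On the log2 scale D1 minus D2 was -3.26 (SE 0.280), with an edgeR adjusted p of 1.36e-10. Pcdh12, also of endothelial cells, had 36 counts in all D1 libraries, 9 of which were at 0, and 371 counts in D2 libraries, 2 of which were at 0 (edgeR adjusted p = 0.00198). All 5 endothelial markers in the list (Cldn5, Flt1, Pecam1, Tek and Ly6c1) were higher in D2 too, none of them at 0 in any library, and Cldn5, a tight junction gene, differed by -3.28 on the log2 scale. All 5 mural and all 5 astrocyte markers were higher in D2 as well. What these cells contributed to Cdh5 and Pcdh12 was not tested.

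The other 5 members higher in D2 differed by less. Cdh19, known from glia of the Schwann cell lineage, had mean levels of 0.657 and 1.84 CPM in D1 and D2 (-1.26 on the log2 scale, edgeR adjusted p = 0.00656), and 5 of 5 oligodendrocyte and 4 of 5 oligodendrocyte precursor markers were also higher in D2. Their part was not tested. Pcdh17 was measured at 194 to 409 CPM in D1 (median 363) and 313 to 953 CPM in D2 libraries (median 369), so the medians were close. In the fit it differed by -0.40 on the log2 scale (SE 0.130, edgeR adjusted p = 0.0210), and without D2 Susceptible replicates 1 and 2, the highest libraries, it was -0.18 (edgeR adjusted p = 0.179). Cdh6 (-0.25), Cdh4 (-0.19), the retinal R-cadherin, and the X-linked Pcdh11x (-0.35) also missed the threshold without those libraries, with edgeR adjusted p of 0.120, 0.309 and 0.339. Cdh19 then stood at -0.81 (edgeR adjusted p = 0.0468). In 30 fits that each left out 1 library, Pcdh17 missed the threshold without either library of that pair (edgeR adjusted p = 0.0537 and 0.0515), Cdh6 passed in 19 and Cdh4 and Pcdh11x in 6 each. The other 13 called members passed in all 30. Leaving out the same pair added Cdh20 (0.40), Cdh22 (0.17), Pcdh18 (0.62) and Pcdhb12 (0.29) as higher in D1 and Cdh26 as higher in D2. These additions were not all particular to that pair. Cdh26, which the filter set aside in the main fit, also passed with no filter (edgeR adjusted p = 0.0314). It passed as well in most fits that left out 1 library, but on few counts, 29 in D1 and 104 in D2 libraries. D1 Susceptible replicate 5 held 26 of the D1 counts, and D2 Resilient replicate 1 held 37 of the D2 counts. Pcdh18 also passed by DESeq2, by voom and with the replicate block.

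**Figure D3:**
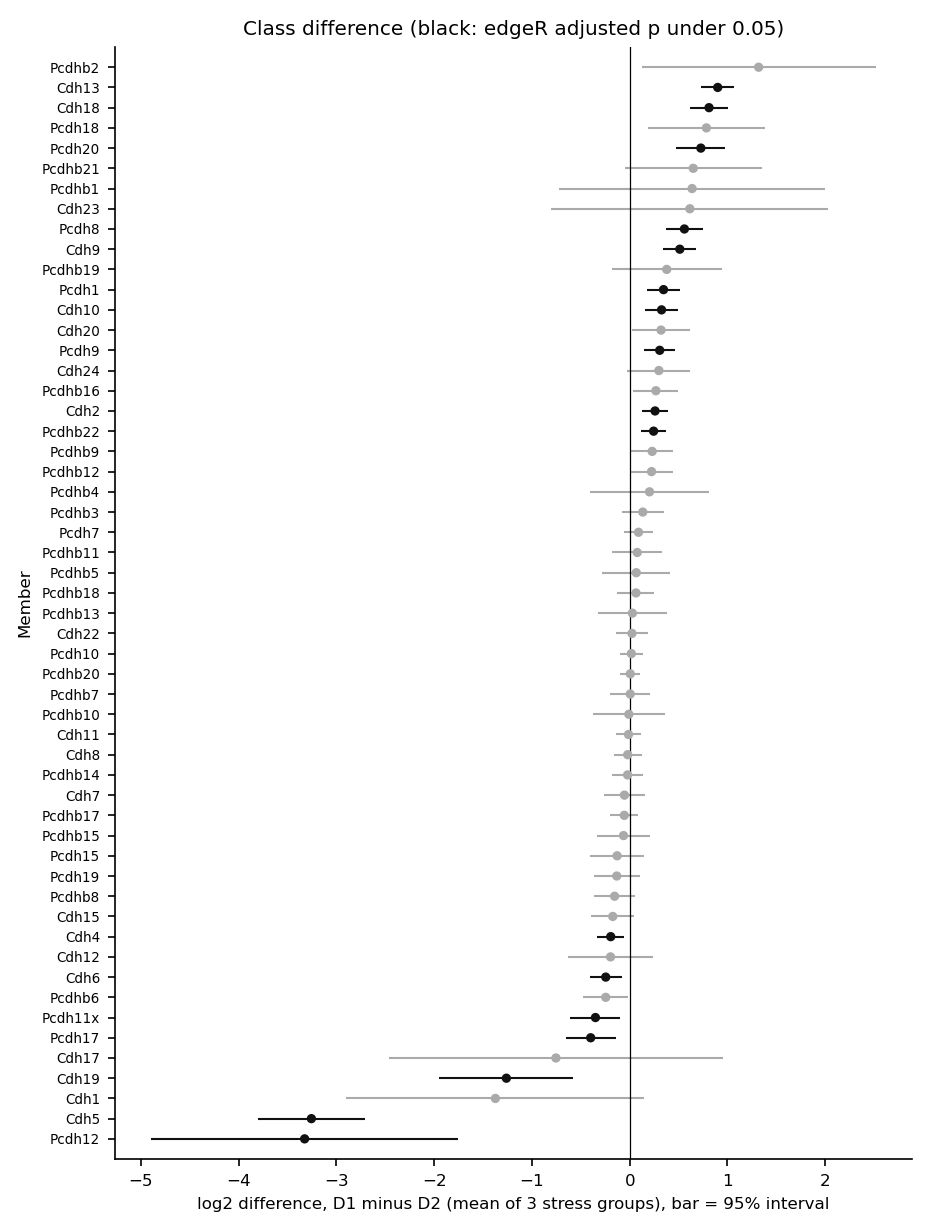
Log2 difference, D1 minus D2, averaged over the 3 stress groups, for the 54 tested members, with bars of 95% confidence intervals (normal) and the members with edgeR adjusted p under 0.05 in black. Cdh13, at 0.90, and Cdh18, at 0.81, are the highest called members, and Cdh5 (-3.26) and Pcdh12 (-3.32) are the lowest called.

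Within single stress states, fewer members passed in Control and Resilient mice, and the same number in Susceptible mice. In Controls 8 of 54 did, against a background of 8.3% of all genes, and 5 had D1 and D2 groups that did not overlap, against 11.7%. Cdh13, Cdh18, Cdh9, Pcdh8, Cdh10 and Pcdh20 were higher in D1, where the background was 3.51%, and Cdh5 and Pcdh12 in D2, where it was 4.8%. For Pcdh12 this was 3 counts in D1 and 131 in D2 Control libraries. Pcdh12, Pcdh8 and Cdh10 passed in only 2, 2 and 4 of the 10 fits without 1 Control library. In Resilient mice Cdh13, Cdh18 and Cdh5 passed, against a background of 6.65% (2.75% higher in D1, 3.9% higher in D2), and 5 members did not overlap, against 9.7%. In Susceptible mice 17 of 54 passed against a background of 23.9%, 10 higher in D1 (background 10.5%) and 7 higher in D2 (background 13.4%), and 4 did not overlap against 8.92%. Without D2 Susceptible replicates 1 and 2 the Susceptible count was 9, and Cdh1, Cdh6, Cdh19, Pcdh1, Pcdh11x, Pcdh17, Pcdhb2, Pcdhb15 and Pcdhb16 no longer passed.

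Those D2 Susceptible libraries lay outside the range of the other 28 for many members. Of the 54 members tested, 10 (18.5%) were above all others in both libraries, against 10.3% of all genes, and 5 (9.26%) were below, against 15.7%. Pcdh17 was at 953 and 854 CPM, against 194 to 479 CPM elsewhere. Pcdh19, an X-linked delta-2 protocadherin linked to epilepsy in females, was at 158 and 126 CPM, against 46.9 to 84.0. Pcdh11x was at 64.5 and 42.6 CPM, against 15.5 to 29.4, and Cdh12 was at 36.9 and 20.8 CPM, against 4.19 to 13.4. Cdh4, Cdh22, Cdh19, Pcdhb11 and Pcdhb15 were the others above the range with Cdh1. Cdh1 (chromosome 8, 106603351 to 106670246, plus strand) was at 4.25 and 4.62 CPM there and at 0 to 0.232 CPM in the other 28 libraries. The summed epidermal genes in those 2 libraries are given above, and their part in the Cdh1 level was not tested.

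Below the range in both libraries were Pcdh1 (81.6 and 110.2 CPM against 112 to 222 elsewhere), Pcdh18, Pcdhb5, Pcdhb19 and Pcdhb21. Pcdhb19 was at 3.44 and 0 CPM, against 4.02 to 14.0 CPM in the others. Fewer members had any count, 47 and 48 against 50 to 55, yet the members' summed level was higher, 2518 and 2404 CPM against 1533 to 2300. Summed markers of medium spiny neurons were high as well, at 7704 and 7984 CPM against 4227 to 7020, and so were summed oligodendrocyte markers, at 1838 and 1395 CPM against 348 to 1278. Their part in the levels of Cdh19 and the other members was not tested.

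**Figure D4:**
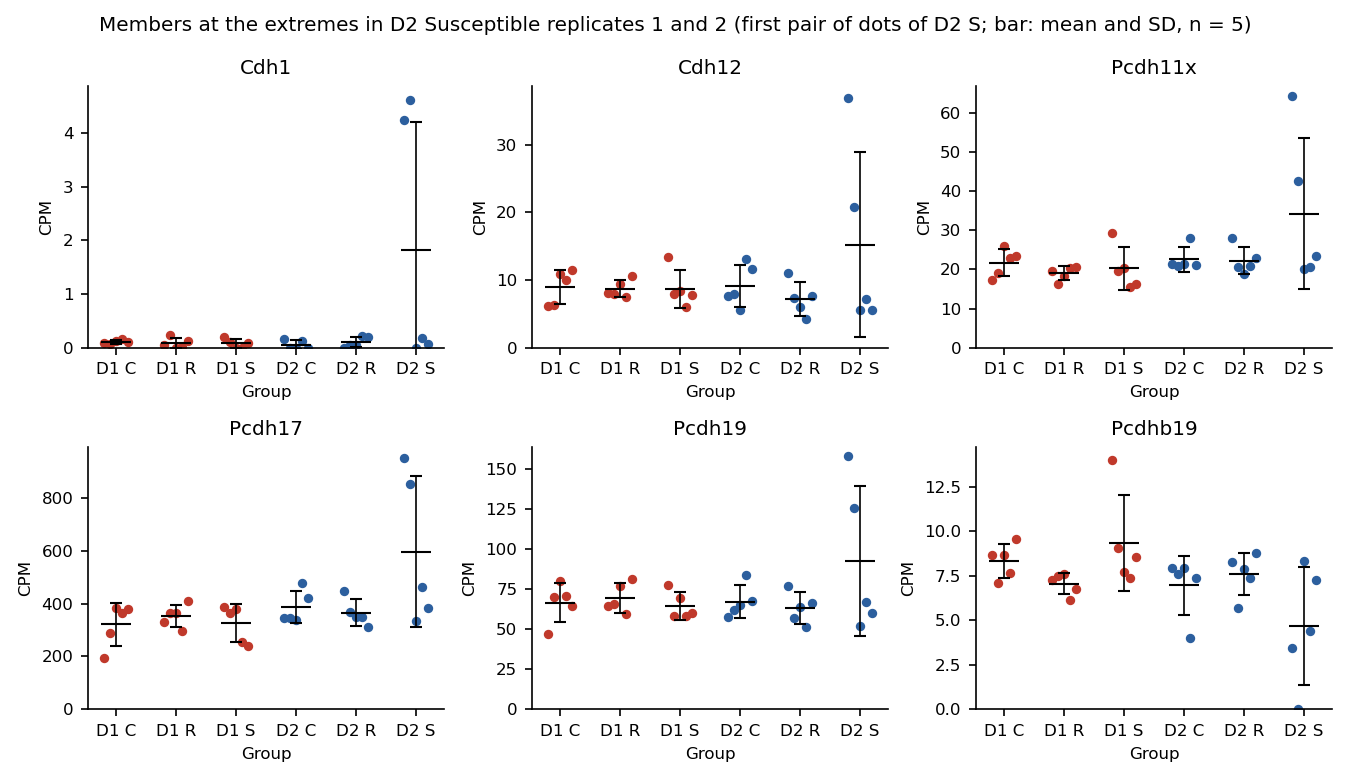
CPM in each library for Cdh1, Cdh12, Pcdh11x, Pcdh17, Pcdh19 and Pcdhb19, by group. Dots are libraries in replicate order, so that the first pair of dots in the D2 Susceptible group (D2 S) are replicates 1 and 2, and bars are the mean and SD of 5. In that pair Pcdh17 is at 953 and 854 CPM and Cdh1 at 4.25 and 4.62 CPM, above the other 28 libraries, and Pcdhb19 is below them.

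Stress moved no member past the threshold. The edgeR count was 0 of 54 in each of the 6 stress comparisons within a class and in each of the 3 tests of whether a stress difference itself differed between D1 and D2. The background was 0.00516% of genes for D2 Susceptible against Control, 0.0516% for D2 Susceptible against Resilient and 0% for the others. Comparisons within a class share their Control, Resilient or Susceptible libraries and are not independent. At an unadjusted edgeR p under 0.05, members numbered 0 (D1 Susceptible against Control), 2 (D1 Resilient against Control), 0 (D1 Susceptible against Resilient), 9, 2 and 15 in the matching D2 comparisons. The backgrounds were 2.4%, 2.6%, 3.49%, 15.7%, 4.2% and 19.1% of all genes. For the 3 tests of a difference between classes the numbers were 5 (Susceptible against Control), 4 (Resilient against Control) and 11 (Susceptible against Resilient), with backgrounds of 7.79%, 4.99% and 12.4%. DESeq2 called 3 members for D2 Susceptible against Control (Cdh1, Cdh19 and Pcdhb11) and 6 for D2 Susceptible against Resilient (Cdh1, Cdh22, Pcdh17, Pcdh20, Pcdhb12 and Pcdhb15). All of these except Pcdh20 and Pcdhb12 were above the other 28 libraries in both D2 Susceptible replicates 1 and 2. The limma voom fit with sample weights called Pcdh20 and Pcdh7 in D1 Resilient against Control and Pcdh20 and Cdh22 in the class difference of that change. Neither tool called a member elsewhere among the stress tests. Of the edgeR fits without 1 library, the most calls came without D2 Susceptible replicate 3 for Susceptible against Control (5) and without D2 Susceptible replicate 5 for Susceptible against Resilient (9). Both fits kept D2 Susceptible replicates 1 and 2. Without that pair, edgeR called no member in either comparison.

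Pcdh20 (chromosome 14, 88464743 to 88471396, minus strand) had the smallest p among members in 6 of these 9 tests. In D1 libraries it was at 6.96, 9.35, 13.9, 9.33 and 10.9 CPM in Controls, 5.12, 6.81, 5.98, 5.77 and 7.28 CPM in Resilient and 10.3, 8.30, 7.46, 6.54 and 8.11 CPM in Susceptible mice. In D2 libraries it was at 3.92, 4.20, 3.20, 4.73 and 5.52 CPM in Controls, 7.83, 5.84, 6.14, 6.63 and 6.64 CPM in Resilient and 2.15, 6.85, 3.68, 3.19 and 3.62 CPM in Susceptible mice. The D1 Resilient libraries were low for D1, and only the highest of them, at 7.28 CPM, exceeded the lowest D1 Control, while the D2 Resilient libraries were all above the D2 Controls. As a result D1 and D2 Resilient means lay close, at 6.19 ± 0.857 and 6.62 ± 0.758 CPM (SD, n = 5), while Controls stood at 10.1 ± 2.55 and 4.31 ± 0.872 CPM. The D1 minus D2 log2 difference was 1.22 in Controls, 1.06 in Susceptible and -0.10 in Resilient mice.

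The Resilient minus Control difference of Pcdh20 was -0.70 in D1 (SE 0.219, unadjusted p = 0.00311, edgeR) and 0.62 in D2 (SE 0.220, unadjusted p = 0.00874, edgeR). Their difference was -1.32 (SE 0.311, unadjusted p = 0.000184), which ranked 6 by p among all genes, and it did not pass over 19368 genes (edgeR adjusted p = 0.594). The adjusted p was 0.0428 in an edgeR fit to the 4 groups compared, 0.0496 in an edgeR fit without the 2 libraries that stood apart, 0.0650 by DESeq2 and 0.000848 by voom with sample weights. It did not pass in edgeR fits with the replicate block, with no filter, with DESeq2 size factors or without 4 libraries. Leaving out single libraries gave differences from -1.42 to -1.17, and the class difference passed in none of those fits. For Susceptible against Resilient the class difference was 1.15 (edgeR adjusted p = 0.220), and the D2 difference alone was -0.76 (edgeR adjusted p = 0.0797). No gene of any cell type marker list was called in a stress comparison, where 0% to 0.0516% of all genes were called. With so few calls at large, the lack of a marker call says little about marker levels. The 3 epidermal markers tested had a median log2 difference of 5.16 in D2 Susceptible against Control with no call. Interneuron markers summed to 438 to 578 CPM in D1 Control and 412 to 571 CPM in D1 Resilient libraries, and to 148 to 409 and 96.7 to 236 CPM in the D2 libraries. Some glial lists had medians in the direction of Pcdh20. The median class difference of the Resilient change was -1.16 over 5 astrocyte and -0.99 over 5 microglia markers, and in D1 alone it was -1.01 and -0.60. Astrocyte markers summed to 29.8 to 136 CPM in D1 Control and 28.3 to 34.8 CPM in D1 Resilient libraries, and to 96.0 to 148 and 54.2 to 184 CPM in D2. The 136 CPM was in D1 Control replicate 1, which had the lowest Pcdh20 of the D1 Controls, 6.96 CPM. Group medians of the astrocyte sums were 39.2 CPM in D1 Control and 29.6 CPM in D1 Resilient libraries. The part of these markers in the Pcdh20 values was not tested.

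Cdh22, a type II cadherin, was lowest in D2 Resilient mice by its group mean. It was at 40.8, 37.0, 41.2, 41.4 and 34.5 CPM in D2 Controls, 27.4, 31.6, 34.2, 32.7 and 33.0 CPM in D2 Resilient and 46.7, 72.1, 36.1, 35.6 and 29.0 CPM in D2 Susceptible libraries. Control and Resilient libraries did not overlap, as for Cdh10 and Pcdh20, 3 members against 1.31% of all genes. No other stress comparison within a class had a member without overlap, where the backgrounds were 0.888%, 1.54% and 1.12% in D1 (in the order above) and 1.31% and 1.5% in D2 for Susceptible against Control and against Resilient. The difference of -0.29 (SE 0.145) did not pass, with an adjusted p of 0.9999 by edgeR, nor did the Susceptible minus Resilient difference of 0.46 (SE 0.145), with an edgeR adjusted p of 0.0921. Cdh10 had values of 14.6 to 17.4 CPM in D2 Control and 18.2 to 20.4 CPM in D2 Resilient libraries.

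For D2 Susceptible against Control, the member with the smallest p was Pcdhb11. It was at 3.92, 4.31, 3.34, 4.31 and 3.05 CPM in Controls and 8.57, 9.82, 4.68, 3.80 and 6.16 CPM in Susceptible libraries, highest in the pair that stood apart (log2 difference 0.80, SE 0.228, edgeR adjusted p = 0.158). Pcdhb12 was the leading member in the other direction, at 11.2, 10.2, 7.42, 8.64 and 5.63 CPM in Controls and 9.28, 5.69, 6.32, 3.69 and 7.51 CPM in Susceptible libraries (-0.41, edgeR adjusted p = 0.295). The groups overlapped for both genes. In the test of the class difference in this change, Cdh1 led at -5.71 (SE 1.96, edgeR adjusted p = 0.637), with the pair of D2 libraries at 4.25 and 4.62 CPM behind it, and Pcdhb2 led in the other direction at 3.06 (edgeR adjusted p = 0.643), with D1 Susceptible replicate 1 at 2.94 CPM.

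In D1 libraries the other leading members had unadjusted p above 0.05. For Susceptible against Control, Cdh15, the muscle M-cadherin, was at 6.04, 7.83, 4.94, 7.19 and 5.61 CPM in Controls and 9.23, 6.12, 6.73, 8.00 and 10.2 CPM in Susceptible libraries (log2 difference 0.34, SE 0.196, edgeR adjusted p = 1). Pcdhb5 was at 6.67, 6.91, 6.52, 6.67 and 7.84 CPM in Controls and 4.67, 6.53, 4.33, 3.32 and 5.67 CPM in Susceptible libraries (-0.49, SE 0.309, edgeR adjusted p = 1). Both pairs of groups overlapped, Pcdhb5 by a single value of 6.53 against 6.52 CPM. For Susceptible against Resilient in D1, Pcdh20 (0.39) and Cdh6 (-0.19) led, with unadjusted edgeR p of 0.0869 and 0.201. For Resilient against Control the leading gene in the upward direction was Pcdh12, with 17 counts in Resilient libraries, all in replicate 1, and 3 counts in Controls (edgeR adjusted p = 1). In the Susceptible against Resilient class difference, Pcdhb15 led downward at -0.90 (SE 0.341, edgeR adjusted p = 0.295).

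The total of the beta cluster overlapped between all 6 groups. Summed over its 22 genes it was 160.4 to 245 CPM per library, with group means of 202 ± 15.02, 194 ± 7.28 and 205 ± 24.0 CPM in D1 Control, Resilient and Susceptible and 188 ± 16.1, 200.2 ± 16.0 and 186 ± 19.96 CPM in D2 (SD, n = 5). Within the cluster, levels per exon length were unequal. Pcdhb20 was at 7.15 and 7.12 CPM per kilobase in D1 and D2, Pcdhb17 at 5.84 and 6.06 and Pcdhb7 at 4.10 in both, while Pcdhb2 was at 0.169 and 0.0702 and Pcdhb1 at 0.0660 and 0.0431. Without D1 Susceptible replicate 1, the D1 mean of Pcdhb2 was 0.107 CPM per kilobase. For the class difference 16 of the 22 were positive and 6 negative (median log2 0.07), and Pcdhb22 passed.

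For stress, 17 of 22 beta genes were lower in D1 Resilient than in D1 Control and 18 of 22 were higher in D2 Resilient than in D2 Control. Over all 19368 genes, 10122 were lower in D1 and 9420 higher in D2. The class difference of that change was negative in 19 of 22 (median -0.17), against 9971 of all genes (median -0.01), and none was called. The members outside the cluster leaned the same way, 20 of 32 negative (median -0.10). Beta genes with any count numbered 18 and 19 in the 2 D2 libraries that stood apart and 21 to 22 in the others. These genes are near-identical in parts and their reads may be split between copies, so single beta values are uncertain, and their signs are not independent of each other. Exons of 10 members overlap those of another gene. Reads of Pcdhb21 and Pcdhb22 overlap on the same strand, as do those of Cdh12 with a predicted gene, and Pcdhb12, Pcdh7, Pcdh8, Pcdh10, Pcdh19, Cdh8 and Cdh9 have antisense partners. The strand setting of the counting is not given in the sources used here, so values of these genes are uncertain to that extent.

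**Figure D5:**
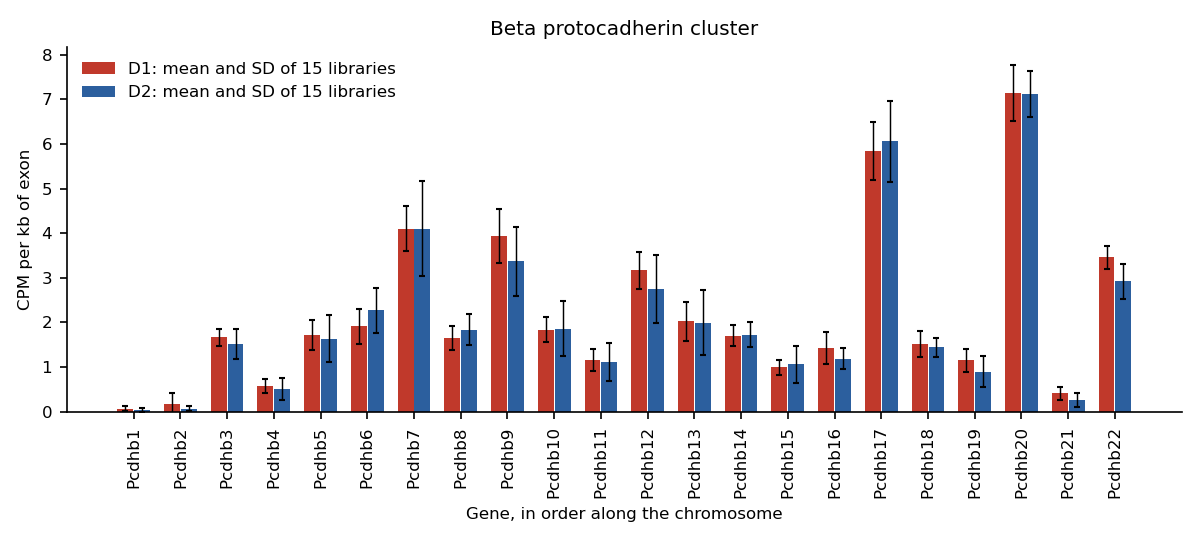
Level of the 22 beta protocadherin genes in CPM per kilobase of exon, in their order along the chromosome, with D1 in red and D2 in blue. Bars are means and error bars SDs of 15 libraries. Pcdhb20 (7.15 and 7.12) and Pcdhb17 (5.84 and 6.06) are the highest and Pcdhb1 is the lowest.

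The partners of cadherins differed between the classes in part. All 3 calsyntenins, which are cadherin-repeat proteins of synapses and vesicle transport, were higher in D1: Clstn2 by 0.99 on the log2 scale (32.9 and 16.6 CPM, edgeR adjusted p = 1.36e-10), Clstn3 by 0.46 and Clstn1 by 0.31. Their summed level was 646 and 721 CPM in the pair of D2 Susceptible libraries, against 1019 to 1808 CPM in the other 28, and in Controls alone 1 of the 3 passed. Of 14 catenins and junction partners, 2 were higher in D1 and 3 in D2 (median log2 0.04). Ctnna1, the alpha-catenin of many tissues that ties cadherins to actin, was higher in D2 (48.4 and 67.3 CPM in D1 and D2, -0.47 on the log2 scale, edgeR adjusted p = 3.51e-09), as were Ctnnd1 (p120-catenin, which keeps cadherins at the surface) and vinculin, Vcl, by -0.30 each. Ctnna2, the neuronal alpha-catenin, was higher in D1 by 0.15 and Nectin1, an adhesion molecule of the immunoglobulin family, by 0.57.

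Of the list of Fat, Dachsous and Celsr genes, which also holds Fjx1, 8 of 10 genes were tested. Dchs2 (0.62) and Fjx1 (0.24) were higher in D1. Dchs2 ran from 5.21 to 25.4 CPM in D1 (mean 7.85) and from 2.13 to 7.24 CPM in D2 libraries. The 25.4 CPM was in D1 Susceptible replicate 1, the library with the TMM factor of 0.340. Celsr3 is listed at 0 in all 30 libraries. Of 9 WAVE complex genes, which drive the growth of branched actin and can be bound by delta protocadherins, Wasf3 (0.20), Nckap1 (0.16) and Cyfip2 (0.22) were higher in D1 and Wasf1 (-0.16) in D2. Of 8 regulators of the clustered genes, Wiz was higher in D1 (0.37) and the cohesin loader Nipbl in D2 (-0.51). In Controls alone, 1 catenin gene passed, higher in D2, and none of the Fat, WAVE or regulator lists. No gene of these lists is a member. The class differences over all stress groups are read against the same background of 29.3%, and the counts in Controls alone against 8.3%.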

How the data were processed

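Polyribosome-bound RNA from pooled accumbens punches was amplified from 10 ng per library with SMART-Seq v4, per the labels' protocols. Whole-number read counts per gene were deposited, and the authors' processing notes name HISAT2, HTSeq, GRCm38 and mm10 with no versions. The series table was identical to the 30 single-library files in each of the 55335 genes. Gene IDs were paired with symbols through GENCODE M21 (55154 matched, 181 did not). Reads not assigned to a gene were kept out of library sizes.

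The edgeR filter on low values (at least 10 counts in enough libraries, 15 in all) kept 19368 genes and set aside 35967. A single edgeR 4.0.16 model (R 4.3.3, quasi-likelihood, robust, TMM) of 6 groups was fitted (biological coefficient of variation 41.4%), with 13 comparisons, and Benjamini-Hochberg adjustment ran over all genes at a threshold of 0.05 within each comparison. CPM values are TMM-scaled. Alternatives were DESeq2 1.42.0, its size factors in edgeR, no filter, limma 3.58.1 voom with quality weights, a replicate block, fits to the groups compared and leaving out each library, and, chosen after seeing the data, leaving out 2 or 4 libraries. The fit was tested on simulated counts. The members, the pathway and marker lists and the tests were chosen with earlier results of these data known. Members named in the text are those called in any comparison, the leading member in each direction where none was called, and the highest and lowest by level. Some of them, such as Pcdhb16, are given by name without a value. Cdh20, Cdh11, Pcdh19 and a few others were named after their values were seen. The D2 marker genes are not reported here by name.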

Additional observations from a re-analysis of the deposited data

Results flagged for a closer look

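In 25 of 314 groups of 5 libraries (54 members, groups with at least 10 counts in a library), the highest or lowest library was far from the other 4 by Dixon's gap test (the gap to the nearest library over the whole range exceeded 0.71). Chance flags about 1 in 20 groups. Low libraries were found for Cdh13 (D1 Control replicate 1, 139.6 CPM against 170.4 to 173 CPM in the other D1 Controls), Pcdhb13 (D1 Resilient replicate 4, 6.55 CPM against 7.36 to 7.68), and, in D2 Control replicate 4, Pcdhb5 (3.97 CPM against 6.16 to 6.94) and Pcdhb19 (4.02 CPM against 7.37 to 7.94). The other 21 were high.

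D1 Susceptible replicate 1, which had the fewest gene counts, was high for Pcdhb2 (2.94 CPM against 0.171 to 0.268), Pcdhb18 (11.2 CPM against 6.63 to 7.36), Pcdhb19 (14.0 CPM against 7.38 to 9.06) and Pcdh7 (129 CPM against 72.0 to 87.7). The TMM factor of that library was 0.340, the lowest of all, and its Pcdhb2 value came from 29 counts. D2 Resilient replicate 1 was high for Pcdh10 (321 CPM against 242 to 257), Cdh6 (35.6 CPM against 26.4 to 28.6), Cdh7 (34.7 CPM against 21.7 to 24.8) and Pcdhb14 (19.7 CPM against 13.2 to 14.2). D2 Susceptible replicate 1 was high for Cdh2 (156 CPM against 106 to 117) and Pcdh15 (13.4 CPM against 5.24 to 7.57). D2 Control replicate 5 was high for Pcdh8 (30.5 CPM against 21.3 to 23.1) and Pcdh7 (98.1 CPM against 72.5 to 78.1), and it is the library with 1236 CPM of summed D1 markers.

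In other Control libraries Cdh11 was at 64.6 CPM in D2 Control replicate 2 against 48.0 to 52.6 CPM, Pcdh11x at 28.2 CPM in D2 Control replicate 4 against 20.8 to 21.5 CPM, Pcdhb8 at 8.08 CPM in D1 Control replicate 5 against 4.95 to 5.86 CPM and Pcdhb4 at 3.89 CPM in D1 Control replicate 1 against 1.72 to 2.28 CPM. That last library also had the highest summed astrocyte markers of the D1 libraries, at 136 CPM. Cdh24 was at 4.72 CPM in D1 Resilient replicate 4 against 3.73 to 3.96 CPM, and Cdh19 at 2.15 CPM in D1 Susceptible replicate 5 against 0.186 to 0.716 CPM. Near the detection limit, Pcdh12 was at 0.319 CPM in D1 Resilient replicate 1 and Cdh17 at 0.176 CPM in D2 Susceptible replicate 5, each with no count in the other 4, and Cdh23 was at 0.211 CPM in D2 Susceptible replicate 3 against 0 to 0.0588 CPM. The part of library size, of the TMM factor and of marker levels in these values was not tested.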

How the results depend on the processing

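Counts of members called between D1 and D2, averaged over stress states, stayed near the 17 reported: 15 to 19 when each library was left out, 16 with the replicate block or with no filter, 18 by DESeq2, 20 by voom and 18 without the 2 libraries that stood apart. Single states moved more. Voom gave 15 in Controls, 11 in Resilient and 11 in Susceptible mice, against 8, 3 and 17. Fits to the groups compared gave 6 in Resilient and 4 in Susceptible mice, fits without the 2 libraries 6 and 9, and fits without 4 libraries 8 and 8. Leaving out each library gave 5 to 9 calls in Controls. For stress, where edgeR called 0, DESeq2 called 3 members (D2 Susceptible against Control) and 6 (D2 Susceptible against Resilient), and leaving out each library gave 0 to 5 and 0 to 9, the most without D2 Susceptible replicate 3 and replicate 5. The edgeR fit without the 2 libraries that stood apart called no member in either comparison. Voom called 2 in D1 Resilient against Control. For the class difference of the Resilient change, voom called 2, the fit to the groups compared 1 and the fit without 2 libraries 1, Pcdh20. The cause of these shifts was not tested. Pcdh12, fitted at 2.27 in D1 Resilient against Control from 17 and 3 counts, ran from -2.59 without D1 Resilient replicate 1, which held all 17, to 2.58. The labels do not say whether replicate numbers pair libraries. Same-numbered libraries did not deviate together (mean correlation -0.004 over 75 same-numbered pairs, 0 of them over 0.1), which cannot exclude pairing. With the replicate block the calls were 16 on average, 7 in Control, 3 in Resilient and 14 in Susceptible mice, and 0 under stress. Low counts limit Cdh1, Cdh17, Cdh23, Pcdh12, Pcdhb1 and Pcdhb2, whose levels lie near what 3 counts give in many libraries. Exceptions include Cdh1 in D2 Susceptible replicates 1 and 2 (198 and 255 counts) and Pcdh12 in D2 Resilient replicate 4 (86 counts).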
